A study of Mus musculus with 12 samples.

Results

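Interferon beta and 38 genes of the interferon system were followed across 12 RNA-seq libraries of mouse pancreatic islets and cells sorted from them. The list holds the gene of interferon beta, its receptor subunits, and genes whose transcription interferons raise. A member was taken as the row of the normalized expression table that carries its symbol. In all, 38 of the 39 symbols were found among 22711 genes. The symbol Ifi27 was not found, and the row of its older symbol Ifi27l1 is described below but enters no count.

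The mice were RIP-rtTA; TetO-VEGF-A, a genotype shared by every library, in which an insulin promoter drives the doxycycline-dependent activator rtTA in beta cells and rtTA switches on a VEGF-A transgene. VEGF-A is the main growth factor of blood vessels. Each of the 4 groups had 3 libraries: whole islets without doxycycline (No Dox islets), whole islets after 1 week of doxycycline (Dox islets), CD11b+ cells sorted from dispersed Dox islets (Dox macrophages), and CD31+ cells sorted from dispersed Dox islets (Dox endothelial cells). Neither sorted group has a counterpart without Dox, and no mice that lack the transgenes were among the libraries, so the effects of doxycycline and of VEGF-A cannot be told apart. Whether replicate libraries stem from different animals is not stated in the labels, and p-values measure the spread between these libraries only.

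Type I interferons are secreted when a cell senses foreign or misplaced nucleic acid, or when Toll-like receptors are engaged. They bind a receptor of Ifnar1 and Ifnar2 chains, whose kinases Jak1 and Tyk2 activate transcription factors, among them Stat2. With Irf9 these form a complex that binds a DNA motif called the interferon-stimulated response element, and the genes it turns on encode sensors of RNA, enzymes that block translation or degrade RNA, GTPases that act on viruses, and feedback inhibitors. Macrophages and plasmacytoid dendritic cells are known as sources of type I interferon, and nearly every cell type can answer it.

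The unit throughout is the authors' normalized signal, a linear value with a floor of 1. How it was normalized is not given in the sources used here, and levels are compared between libraries and not between genes. The summed signal ran from 1.76e+07 to 2.52e+07 per library, and the sequencing depth is unknown. Mouse Vegfa was 3268, 4514 and 4118 in the No Dox islets and 1579.6, 2085 and 2418 in the Dox islets, and whether its row counts the transgene is not given, so it does not check the Dox label. The sort markers fitted the labels: Itgam, which encodes CD11b, was 11397 to 11460 in macrophages and 2.05 to 12.4 in endothelial cells, while Pecam1, which encodes CD31, was 738 to 772 and 57096 to 64909. Of 15 macrophage markers, 15 were higher in macrophages than in endothelial cells, and of 14 tested endothelial markers 14 were lower. Acinar enzyme genes differed widely within both sorts, with a summed signal of 1438 to 455760 in macrophages and 295 to 131380 in endothelial cells, highest in library 2 of each.

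Short stretches of 7 member promoters are printed here. Those of Isg15, Ifit1, Ifit3, Oas1a and Oas3 show the core of the response element in genes that were higher in macrophages, and those of Ifnb1 and Ifi44 are shown because these genes had the largest positive and the largest negative difference between the sorted cells. RefSeq's table of build GRCm38.p6, 250 bases before to 50 after a start site, held 36 promoters for 30 of the members. The stretches are given 5′ to 3′ on the strand of the gene, and capitals mark motif matches on either strand, merged where they overlap. The motifs are AANNGAAA, the core bound by interferon regulatory factors (marked in Ifnb1 and Ifi44), the NF-kB motif, which is GGGA and TTCC with any 2 bases between them (marked in Ifnb1), and the core of the response element, which is a GAAA unit, any 2 bases and a further GAAA unit (marked in the others).
Ifnb1, chr4:88522890-88522944, minus strand: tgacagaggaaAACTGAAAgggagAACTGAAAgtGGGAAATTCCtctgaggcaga
Isg15, chr4:156200859-156200918, minus strand: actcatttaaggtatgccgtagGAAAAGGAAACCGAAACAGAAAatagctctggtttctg
Ifit1, chr19:34640764-34640823, plus strand: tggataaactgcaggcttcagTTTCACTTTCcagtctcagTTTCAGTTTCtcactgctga
Ifit3, chr19:34583359-34583428, plus strand: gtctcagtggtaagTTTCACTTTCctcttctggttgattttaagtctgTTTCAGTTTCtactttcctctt
Oas1a, chr5:120907526-120907585, minus strand: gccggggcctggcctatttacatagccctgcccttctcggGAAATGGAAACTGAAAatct
Oas3, chr5:120777700-120777759, minus strand: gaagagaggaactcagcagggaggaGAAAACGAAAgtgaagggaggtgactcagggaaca
Ifi44, chr3:151749921-151749980, minus strand: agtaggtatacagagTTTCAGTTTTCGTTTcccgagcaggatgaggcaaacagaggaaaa

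The response element core was found in 15 of the 36 member promoters (41.7%) and in 3.44% of all 32851 promoters. AANNGAAA, which every response element core contains, was found in 22 (61.1%), against 23.9% of all promoters. The gamma-activated site TTCNNNGAA, a motif of the interferon gamma response, was found in 10 (27.8%), against 8.3%, and the NF-kB motif in 5 (13.9%), against 1.47%. All motifs were searched on both strands. The Ifnb1 stretch holds 2 AANNGAAA matches directly before the NF-kB match, an arrangement that no other printed stretch has. In Ifi44 the 2 marked AANNGAAA matches overlap, and its window of 300 bases holds no response element core. The core was found both in called and in uncalled members. Of its holders, Eif2ak2, Gbp2, Gbp3, Ifih1, Ifit1, Ifit3, Isg15, Oas1a and Oas3 were higher in macrophages in the test between the sorted cells given below. No holder was called lower. Bst2, Ddx58, Ifitm3, Rsad2 and Stat2 hold it and did not pass that test, and Socs1 was not tested. Ifnb1, Ifnar1, Ifnar2, Ifit2, Irf1, Isg20, Oasl1 and Trim25 lack it in their windows and were higher in macrophages. A match describes letters only and is no measurement of binding.

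Most members had their highest mean in the sorted macrophages. Of 38 members, 31 did, and in 27 of these every macrophage library lay above the other 9 libraries. Of the 37 members that reached the low-value filter in at least 3 libraries, all but Socs1, this held for 26, and of the 11593 genes that reached it for 19.1%. Among the 26, Ifnb1, Mx1, Isg15, Oas3, Irf7, Dhx58 and Zbp1 were under the filter in the other 9 libraries and so had to lie above them. How many of the 11593 genes did so was not counted. The endothelial cells held the highest mean of 5 members, namely Ddx58, Ifitm3, Ifi35, Ifi44 and Cmpk2, and for Cmpk2 alone all 3 libraries lay above the other 9 (11.7% of all genes). Isg20 and Usp18 were highest on average in the No Dox islets with overlapping libraries, and the Dox islets held the highest mean of 0 members. The No Dox islets held the lowest mean of 26 members.

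**Figure D1:**
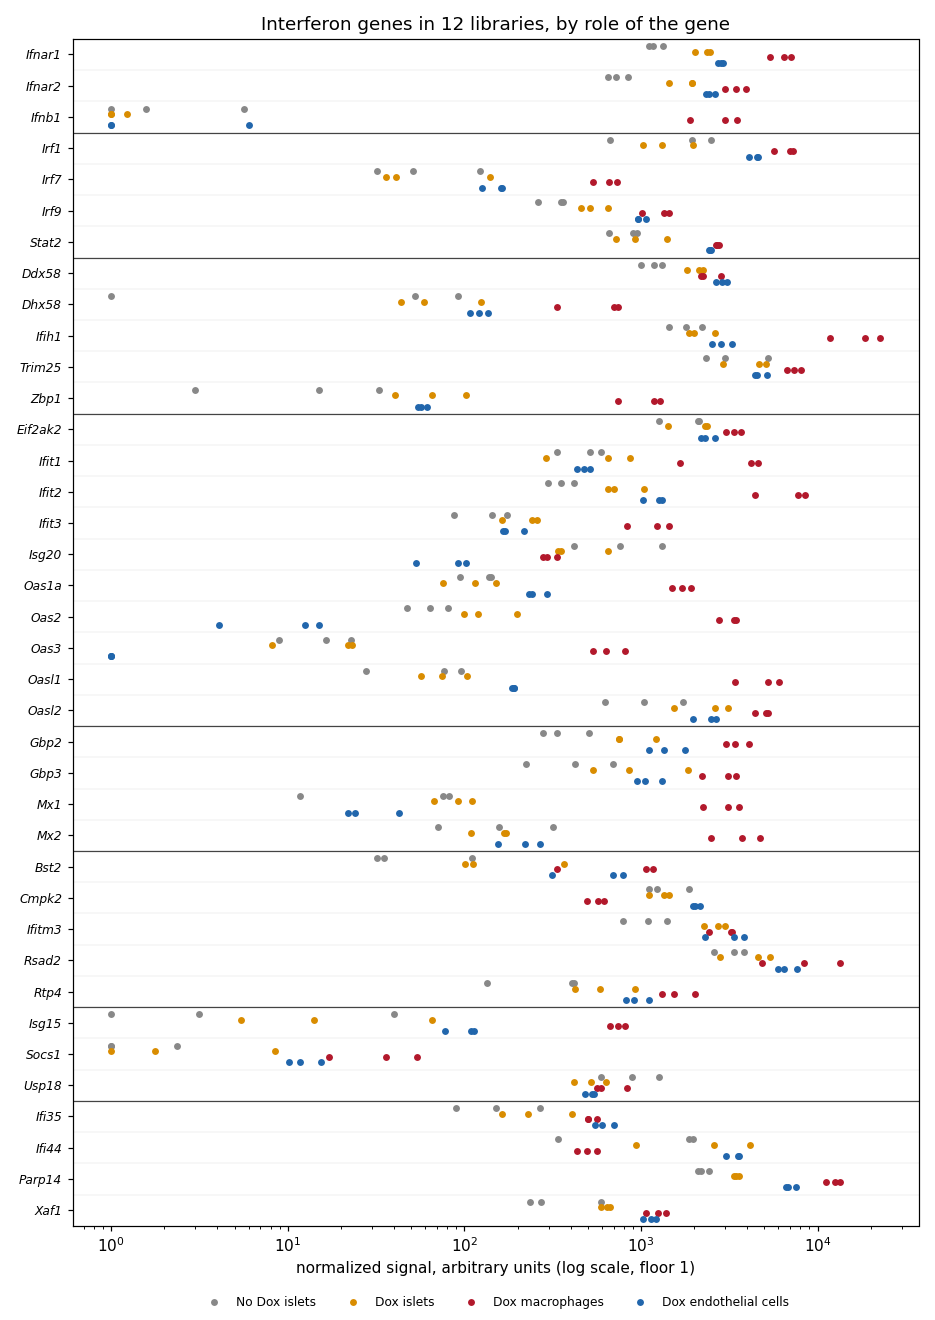
Normalized signal (x axis, log scale, floor 1) of each of the 38 members (y axis, grouped by role) in the 12 libraries, 1 point per library coloured by group. The macrophage points lie to the right of the others for 27 members, and to the left for Cmpk2.

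Macrophages against endothelial cells set the 2 sorted cell types of the same Dox islets side by side. Interferon beta, its receptor chains, both Mx GTPases and each tested member of the Oas and Ifit families were higher in macrophages, while Ifi44 and Cmpk2 were lower. A gene was tested where its signal reached 183 in at least 3 of the 6 libraries (the filter on low values), and called where its adjusted p was under 0.05. Of 37 members tested, 26 were higher, against 29.4% of the 10145 genes tested. Another 2 were lower, against 36% of those genes, and 9 did not pass. In either direction 28 were called, against 65.4% of genes. The median difference of the 37 was 1.15 on the log2 scale, beside -0.14 over all genes. Of these 37 members, 9 reached the filter on low values through macrophages alone and so had to differ. These were Ifnb1, Mx1, Isg15, Isg20, Oas2, Oas3, Irf7, Dhx58 and Zbp1. Of the other 28, 17 were higher and 2 lower. With the 4 groups in 1 fit, 6 of these calls were lost, those of Irf1 (given below), Ifnar2 (adjusted p = 0.0543), Trim25 (0.0809), Dhx58 (0.113), Eif2ak2 (0.114) and Rtp4 (0.156).

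Macrophages against whole Dox islets compare a sorted cell type with the tissue that contains it. Here 30 of 37 tested members were higher (24.7% of 10687 genes were), 2 were lower (31.3%), together 32 against 56% of genes, and 5 did not pass. The median difference was 1.83, beside -0.12 over all genes. The filter was reached through macrophages alone by 10 members, Ifnb1, Mx1, Mx2, Isg15, Oas1a, Oas3, Oasl1, Irf7, Dhx58 and Zbp1. Of the other 27, 20 were higher and 2 lower. With no filter, 7 calls were lost, those of Oasl2, Bst2, Ifi44, Trim25, Eif2ak2, Gbp3 and Ifi35. In bulk RNA, fewer cells of a type and less RNA per cell cannot be told apart, and only the sorted cells went through dispersal and sorting. All comparisons share libraries, so their counts are not independent of each other. Differences below are of log2(signal + 1) with the standard error (SE) and limma's p adjusted over all genes tested, and the plot of both comparisons shows them for every member.

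**Figure D2:**
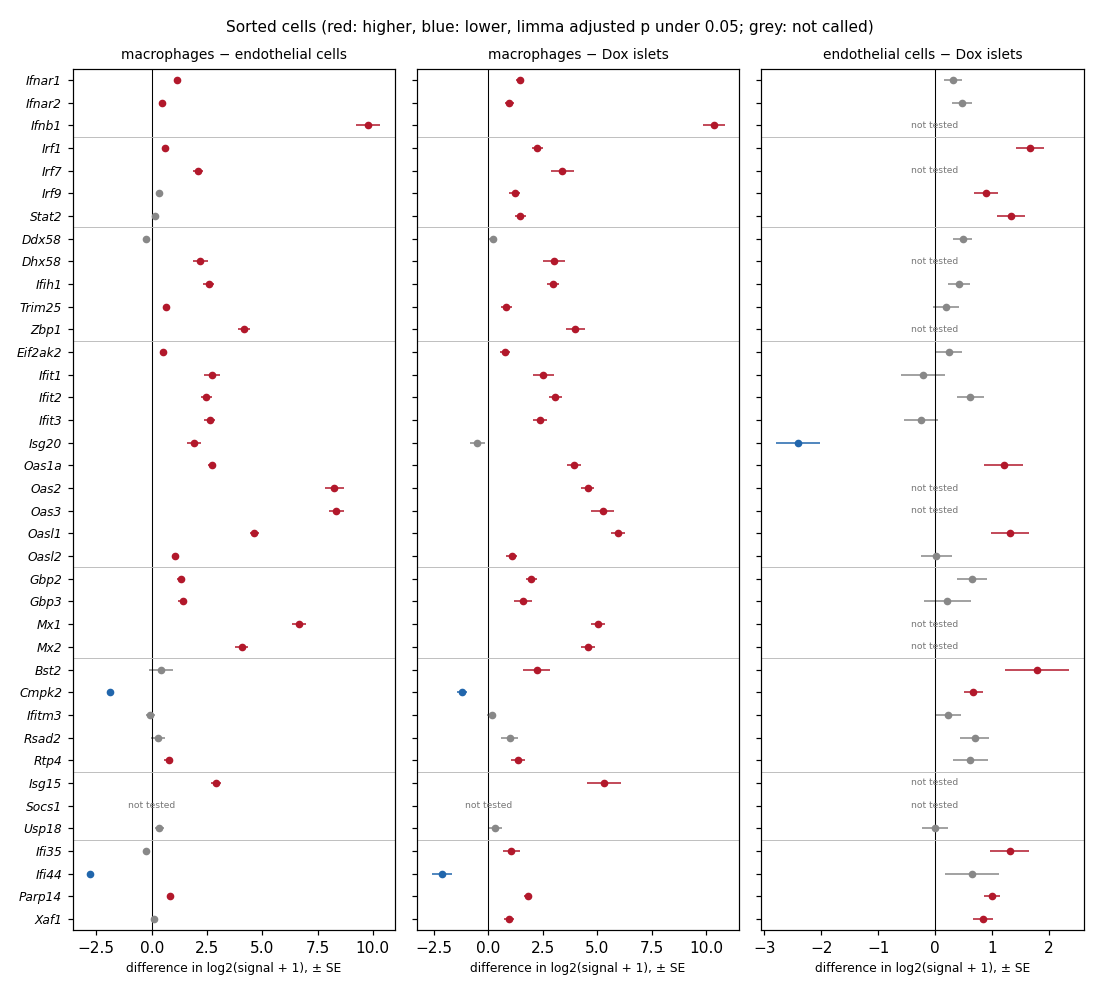
Difference in log2(signal + 1) ± SE (x axis) for each member (y axis, grouped by role) in the comparisons of sorted cells, with called members in colour (red higher, blue lower) and the rest in grey. Ifnb1 lies farthest to the right in both macrophage comparisons, and Ifi44 and Cmpk2 are the called members left of 0 in them.

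The gene of the ligand was read in the sorted macrophages and hardly in the other libraries. Ifnb1 (ENSMUSG00000048806, chr4:88167929-88168698 of build mm9) had a signal of 1895, 2997 and 3497 in the macrophages and of 6.05, 1 and 1 in the endothelial cells. The Dox islets held 1.22, 1 and 1 and the No Dox islets 1.58, 5.68 and 1, so all 9 other libraries were at or near the floor. The difference from endothelial cells was 9.80 (SE 0.54, adjusted p = 1.31e-06), a size that the floor and the added 1 set: it was 7.20 when 16 was added instead. The call against Dox islets had an adjusted p of 1.09e-06, and no size is given because their libraries were at or near the floor. In both comparisons Ifnb1 reached the filter through macrophages alone. The summed signal of 15 macrophage markers was 19367 to 26918 in the whole Dox islets and 440780 to 457940 in the sorted macrophages. Why Ifnb1 was at or near the floor in those islets while these markers were not was not tested. The level of Ifnb1 in macrophages within intact islets was not measured. Of 15 other interferon genes, 0 reached the filter. Ifna2 was 55.6, 180.2 and 103 in macrophages and at the floor in the other 9 libraries, no other alpha interferon exceeded 31.0, and Ifnk reached 67.2. The signal of Ifng, the gene of type II interferon, was 148 in Dox islet library 2 and at most 57.6 elsewhere, and Ifne, Ifna12, Ifna14, Ifnl2 and Ifnl3 were at the floor throughout.

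Both receptor chains followed the order macrophages, endothelial cells, Dox islets, No Dox islets. Ifnar1 was 6499, 5408 and 7068 in macrophages, 2738, 2838 and 2913 in endothelial cells, 2447, 2367 and 2016 in Dox islets and 1324, 1165 and 1117 in No Dox islets. Each group lay above the next with no overlap. Ifnar1 exceeded the endothelial level by 1.15 (SE 0.11, adjusted p = 4.30e-05) and the Dox islet level by 1.47 (SE 0.19, adjusted p = 1.74e-04). Ifnar2 was 3949, 3456 and 2993 in macrophages and 2331, 2418 and 2628 in endothelial cells. In whole islets it was 1450.1, 1954 and 1941 with Dox and 719.5, 654 and 846 without. These groups did not overlap either, with a macrophage excess of 0.49 (SE 0.12, adjusted p = 0.00839) over endothelial cells and of 0.96 (SE 0.21, adjusted p = 0.00370) over Dox islets. Endothelial cells and Dox islets, neighbours in this order, did not pass the test for Ifnar1 (difference 0.32, SE 0.15, adjusted p = 0.152) or Ifnar2 (0.48, SE 0.18, adjusted p = 0.0773).

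**Figure D3:**
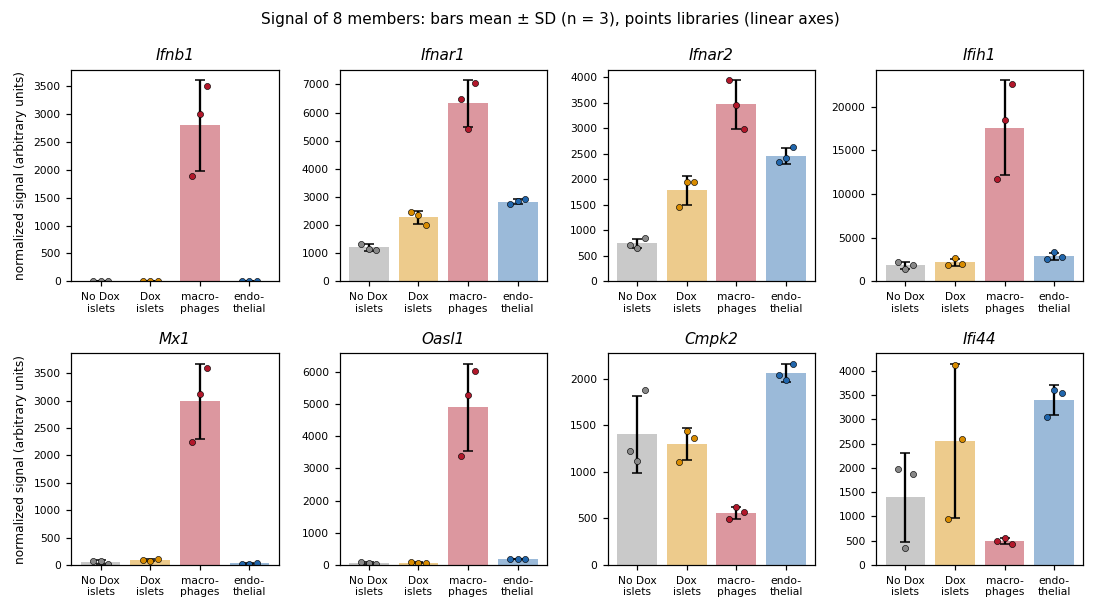
Normalized signal (y axis, linear, each panel with its own scale from 0) of 8 members in the 4 groups, with bars for the mean, error bars for the SD (n = 3) and points for libraries. Ifnb1, Mx1 and Oasl1 stand high in macrophages only, Ifnar1 and Ifnar2 step down from macrophages to No Dox islets, and Cmpk2 and Ifi44 are low in macrophages.

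The transcription factors that carry and amplify the signal differed from each other. Irf7, which drives the alpha interferon genes and further Ifnb1, was 736, 661 and 538 in macrophages and 162, 164 and 125 in endothelial cells. Its macrophage excess was 2.09 (SE 0.23, adjusted p = 6.93e-05) over endothelial cells and 3.41 (SE 0.54, adjusted p = 5.83e-04) over Dox islets, where it was 139.7, 36.2 and 41.1. In both comparisons Irf7 reached the filter through macrophages alone. Irf1, a factor of the interferon gamma response, was 6958, 7308 and 5644 in macrophages, 4534, 4069 and 4589 in endothelial cells and 1977, 1309 and 1030.2 in Dox islets. The macrophages lay 0.59 (SE 0.12, adjusted p = 0.00276) above endothelial cells, a call that was lost when the 4 groups were fitted together (adjusted p = 0.255), and 2.25 (SE 0.26, adjusted p = 8.84e-05) above Dox islets. Stat2 and Irf9, components of the response complex, stood close together in the sorted cells. Stat2 was 2754, 2649 and 2713 in macrophages and 2439, 2476 and 2489.5 in endothelial cells, a difference of 0.13 (SE 0.09, adjusted p = 0.211) that did not pass although the libraries did not overlap. Irf9 was 1349, 1442 and 1013 and 961, 1072 and 957, which overlapped, with a difference of 0.33 (SE 0.16, adjusted p = 0.103). Against Dox islets, macrophages were higher in both, by 1.47 (SE 0.26, adjusted p = 0.00114) for Stat2 and 1.23 (SE 0.25, adjusted p = 0.00295) for Irf9.

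Of the RNA and nucleic acid sensors, Ifih1, Trim25, Zbp1 and Dhx58 were higher in macrophages than in endothelial cells and RIG-I was not among them. Zbp1 and Dhx58 reached the filter through macrophages alone, and of the other 3 sensors 2 were higher, beside 29.4% of all genes. Ifih1 encodes MDA5, the sensor of long double-stranded RNA. It was 11741, 18465 and 22591 in macrophages, 2514, 3299 and 2823 in endothelial cells, 1883, 2638 and 1991 in Dox islets and 2221, 1439 and 1805 in No Dox islets. All macrophage libraries lay far above the other 9, by 2.57 (SE 0.23, adjusted p = 2.20e-05) over endothelial cells and 2.98 (SE 0.27, adjusted p = 2.23e-05) over Dox islets. Ddx58, which encodes RIG-I, the sensor of RNA with a triphosphate end, was 2201, 2857 and 2237 in macrophages and 2891, 3090.4 and 2670 in endothelial cells. The libraries overlapped and the difference of -0.25 (SE 0.13, adjusted p = 0.119) did not pass, nor did that of 0.23 (SE 0.20, adjusted p = 0.350) from Dox islets. With the replicate number as a block, Ddx58 was called lower in macrophages than in endothelial cells (adjusted p = 0.0489), as it was without macrophage library 2 (adjusted p = 0.0243).

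Zbp1, a sensor of Z-form nucleic acid linked to necroptosis, was 1186, 1276 and 746 in macrophages, 54.6, 61.2 and 56.8 in endothelial cells and 102, 65.2 and 40.2 in Dox islets. Its macrophage excess was 4.16 (SE 0.27, adjusted p = 3.00e-06) and 3.99 (SE 0.43, adjusted p = 5.70e-05). Dhx58, which encodes the regulatory helicase LGP2, was 708, 738 and 335 in macrophages, with library 3 lowest, and 121, 136 and 108 in endothelial cells. It was higher in macrophages by 2.20 (SE 0.34, adjusted p = 5.63e-04), and by 3.02 (SE 0.51, adjusted p = 8.92e-04) against Dox islets at 123, 43.6 and 58.8. Trim25, the ubiquitin ligase that acts on RIG-I, was 6694, 7371 and 8070 in macrophages and 4553, 5166 and 4434 in endothelial cells, a difference of 0.64 (SE 0.11, adjusted p = 8.64e-04). Against Dox islets its difference was 0.84 (SE 0.24, adjusted p = 0.0161), a call lost without macrophage library 2 (adjusted p = 0.0506) or 3 (0.0577).

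The effectors that act on RNA and translation shared a direction between the sorted cells, and none of the 10 had overlapping libraries (31.6% of all genes lay above without overlap). Isg20, Oas2 and Oas3 reached the filter through macrophages alone, and the other 7 were all higher than in endothelial cells, beside 29.4% of all genes. Against Dox islets Oas1a, Oas3 and Oasl1 reached it through macrophages alone, and 6 of the other 7 were higher, beside 24.7%. The 2'-5'-oligoadenylate synthetases make the second messenger that activates RNase L. Oas2 was 3368, 3437 and 2776 in macrophages, 4.10, 15.1 and 12.5 in endothelial cells and 198, 99.8 and 119.8 in Dox islets. Endothelial cells were thus the lowest group for Oas2, and macrophages exceeded them by 8.26 (SE 0.44, adjusted p = 9.88e-07) and exceeded Dox islets by 4.57 (SE 0.30, adjusted p = 4.38e-06). Oas3 was 538, 632 and 816 in macrophages and listed at the floor of 1 in all endothelial libraries, for which no fold is given (adjusted p = 3.00e-07). Its Dox islet values were 22.0, 23.0 and 8.12, lower than in macrophages by 5.25 (SE 0.52, adjusted p = 3.67e-05). Oas1a was 1707, 1927 and 1496 in macrophages and 231, 294 and 241 in endothelial cells, a difference of 2.74 (SE 0.17, adjusted p = 2.74e-06), and the difference from the Dox islet values of 152, 114 and 75.6 was 3.94 (SE 0.33, adjusted p = 1.37e-05). The mouse genome holds close copies of Oas1a and Ifit3, and how the authors' counting split reads between such copies is not given, so their values are uncertain.

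The Oas-like genes differed from each other in size. Oasl1, which encodes a repressor of Irf7 translation in mice, was 3398, 5271 and 6029.6 in macrophages and 187, 191 and 191 in endothelial cells, a narrow set. The Dox islets held 104, 56.5 and 74.5. Macrophages were higher by 4.64 (SE 0.21, adjusted p = 4.71e-07) and 5.95 (SE 0.33, adjusted p = 1.82e-06). Oasl2, its chromosomal neighbour, was 4413, 5209 and 5088 in macrophages, 1967, 2674 and 2506 in endothelial cells and 1531, 3129 and 2627 in Dox islets. The macrophages were again above both, with smaller differences of 1.05 (SE 0.14, adjusted p = 2.19e-04) and 1.07 (SE 0.27, adjusted p = 0.00857).

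The Ifit proteins bind RNA that lacks the cap marks of the host. Ifit1 was 1656, 4181 and 4609.6 in macrophages, with library 1 well below the others, and 475, 518 and 432 in endothelial cells. The macrophages were above the endothelial cells by 2.74 (SE 0.36, adjusted p = 2.20e-04) and above Dox islets, at 292, 863 and 655, by 2.53 (SE 0.49, adjusted p = 0.00190). Ifit2 was 4426, 8458 and 7793 in macrophages and 1258, 1323 and 1032 in endothelial cells, and Ifit3 was 832, 1437 and 1227 and 165, 219 and 170.1. Library 1 was again the lowest macrophage library of each. The differences were 2.47 (SE 0.24, adjusted p = 3.69e-05) for Ifit2 and 2.63 (SE 0.25, adjusted p = 3.14e-05) for Ifit3. Against Dox islets, with Ifit2 at 651, 1036 and 702 and Ifit3 at 164, 258 and 241, they were 3.09 (SE 0.30, adjusted p = 2.96e-05) and 2.38 (SE 0.32, adjusted p = 2.21e-04).

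The kinase PKR and the exonuclease Isg20 complete this role. Eif2ak2, which encodes PKR, the kinase that halts translation on double-stranded RNA, was 3383, 3701 and 3046 in macrophages and 2196, 2613 and 2291 in endothelial cells. Its difference of 0.51 (SE 0.12, adjusted p = 0.00480) was among the smallest called, with 0.76 (SE 0.24, adjusted p = 0.0231) against Dox islets. The latter call was lost without macrophage library 1 (adjusted p = 0.0737) or 2 (0.0877). Isg20 was 280.3, 293 and 334 in macrophages, 53.2, 102 and 91.7 in endothelial cells, 649, 338 and 353 in Dox islets and 419.7, 1323 and 765 in No Dox islets. It exceeded the endothelial level by 1.91 (SE 0.31, adjusted p = 8.33e-04) and was the member of this role that was not higher than in Dox islets, at -0.50 (SE 0.34, adjusted p = 0.245).

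All 4 GTPases were higher in macrophages in both comparisons (29.4% and 24.7% of all genes were). Mx1 in both, and Mx2 against Dox islets, reached the filter through macrophages alone. Mx1, whose product blocks viruses in the nucleus, was 2243, 3117 and 3599.5 in macrophages and 21.9, 24.2 and 42.7 in endothelial cells. The Dox islets held 92.1, 67.3 and 111 and the No Dox islets 81.4, 75.9 and 11.7, so every other library was at or below 111. The differences were 6.64 (SE 0.32, adjusted p = 5.47e-07) and 5.04 (SE 0.31, adjusted p = 2.94e-06). Mx2, its cytoplasmic counterpart, was 2494, 3717 and 4707 in macrophages, 154, 269 and 219 in endothelial cells and 172, 109 and 169 in Dox islets. All its macrophage libraries lay above the rest, with differences of 4.07 (SE 0.28, adjusted p = 4.82e-06) and 4.57 (SE 0.32, adjusted p = 5.16e-06). Gbp2, a GTPase that coats vacuoles of intracellular pathogens, was 3389.5, 4088 and 3031 in macrophages and 1352, 1776 and 1115 in endothelial cells, a difference of 1.32 (SE 0.19, adjusted p = 3.67e-04), and 753, 1219 and 752 in Dox islets, a difference of 1.97 (SE 0.25, adjusted p = 1.52e-04). Gbp3 was 3097, 3470.2 and 2216, 945, 1311 and 1057 and 536, 1836 and 852 in the same order of groups. Its Dox islet libraries were widely spread, and the differences were 1.39 (SE 0.20, adjusted p = 3.31e-04) and 1.61 (SE 0.41, adjusted p = 0.00930).

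Of 5 membrane and lipid effectors, 1 was higher and 1 lower in macrophages than in endothelial cells, beside 29.4% and 36% of all genes. Rtp4, a chaperone of receptors, was 1538, 2018 and 1315 in macrophages, 819.7, 1118 and 912 in endothelial cells and 425, 926 and 583 in Dox islets. It was the member called higher, by 0.76 (SE 0.19, adjusted p = 0.00828), with 1.38 (SE 0.32, adjusted p = 0.00538) against Dox islets. Cmpk2, a nucleotide kinase that supplies the substrate of viperin, was 496, 618 and 568 in macrophages, 2034, 1982 and 2163 in endothelial cells, 1111, 1438 and 1359 in Dox islets and 1228, 1112 and 1878 in No Dox islets. The macrophages were the lowest group with no overlap, by -1.88 (SE 0.13, adjusted p = 5.14e-06) from endothelial cells and -1.21 (SE 0.23, adjusted p = 0.00167) from Dox islets. Rsad2, which encodes viperin, lies beside Cmpk2 on chromosome 12 (chr12:27127618-27141317 and chr12:27154069-27164700 of mm9, opposite strands). It was 4842, 8418 and 13329 in macrophages and 6499, 5938 and 7666 in endothelial cells. Macrophage library 1 lay below all endothelial libraries and libraries 2 and 3 above them, and the difference of 0.29 (SE 0.32, adjusted p = 0.450) did not pass. It passed without macrophage library 1 (0.67, adjusted p = 0.0316) and turned to -0.06 without library 3 (adjusted p = 0.820). Against Dox islets, at 2796, 5399 and 4606, the difference of 0.99 (SE 0.38, adjusted p = 0.0534) did not pass either, and it passed under 7 alternatives, among them without macrophage library 1 (adjusted p = 0.0130), with the 4 groups in 1 fit (0.0260) and with the library number run as a term (0.00296).

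The remaining pair of this role had overlapping sorted cells. Bst2, which encodes tetherin, was 1177, 1072 and 337 in macrophages and 695, 796 and 314 in endothelial cells, with library 3 low in both, a difference of 0.43 (SE 0.53, adjusted p = 0.502). Against Dox islets, at 368, 112 and 101, macrophages were higher by 2.22 (SE 0.63, adjusted p = 0.0145), although 1 islet library overlapped. That call was lost without macrophage library 1 (adjusted p = 0.0584) and without Dox islet library 2 (0.0536) or 3 (0.0585). Ifitm3, which blocks the entry of enveloped viruses, was 3293, 3235 and 2423 in macrophages and 3844, 3382 and 2299 in endothelial cells, with a difference of -0.07 (SE 0.21, adjusted p = 0.781). It did not differ detectably from Dox islets either, at 0.16 (SE 0.21, adjusted p = 0.528).

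Among the ubiquitin-like modifier and the feedback inhibitors, Isg15 was higher in macrophages and the others gave no call. Isg15, a ubiquitin-like protein joined to many targets, was 743, 813 and 670.0 in macrophages and 113, 109 and 78.2 in endothelial cells. The Dox islets held 65.4, 14.1 and 5.41 and the No Dox islets 3.15, 39.8 and 1, low in all 6 libraries. The differences were 2.90 (SE 0.23, adjusted p = 1.20e-05) and 5.32 (SE 0.78, adjusted p = 3.63e-04). In both comparisons Isg15 reached the filter through macrophages alone. Usp18 removes Isg15 from proteins and also blocks the receptor at Ifnar2. It was 563, 836 and 596 in macrophages, 483, 545 and 526 in endothelial cells, 418, 523 and 638 in Dox islets and 1269.7, 595 and 886 in No Dox islets. Its differences did not pass, at 0.34 (SE 0.20, adjusted p = 0.162) and 0.34 (SE 0.29, adjusted p = 0.344). Socs1, an inhibitor of the receptor kinases, stayed under the filter in every library and was not tested. It was 36.0, 53.9 and 17.0 in macrophages, 10.2, 15.4 and 11.8 in endothelial cells and at most 8.44 in the islets, so the macrophages lay above all other libraries at a low level.

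The other induced genes split in direction. Ifi44 (chr3:151393886-151412911 of mm9) was 496, 566 and 435 in macrophages and 3047, 3606 and 3542 in endothelial cells. It was 940.3, 4126 and 2605 in Dox islets and 1979, 341 and 1870.3 in No Dox islets, with a wide spread in both. It had the largest negative difference of the tested members, -2.77 (SE 0.14, adjusted p = 8.20e-07) against endothelial cells, and -2.12 (SE 0.47, adjusted p = 0.00449) against Dox islets, a call lost with no filter (adjusted p = 0.0522). Parp14, an ADP-ribosyltransferase, was 11193, 13383 and 12551 in macrophages, 6592, 7558 and 6810.1 in endothelial cells, 3459, 3596 and 3385 in Dox islets and 2436, 2117 and 2186 in No Dox islets. The groups fell into that order with no overlap, and macrophages were higher by 0.82 (SE 0.10, adjusted p = 1.58e-04) and 1.83 (SE 0.17, adjusted p = 2.86e-05). Xaf1, an antagonist of an apoptosis inhibitor, was 1244, 1379 and 1064, 1146, 1212 and 1032 and 668, 591 and 641 in macrophages, endothelial cells and Dox islets. It did not differ detectably between the sorts (0.12, SE 0.14, adjusted p = 0.495) and was higher in macrophages than in Dox islets by 0.95 (SE 0.22, adjusted p = 0.00526). Ifi35 was 499.7, 561 and 500.3, 708, 603 and 549.5 and 409.6, 230.2 and 163, with -0.25 (SE 0.17, adjusted p = 0.231) between the sorts and 1.06 (SE 0.38, adjusted p = 0.0392) against Dox islets. The latter call was lost without any 1 macrophage library (adjusted p = 0.0969, 0.112 and 0.0700), without Dox islet library 2 (0.0936) or 3 (0.135), with no filter (0.0935) and with the library number run as a term (0.0618). Ifi27, through the row Ifi27l1, was 819, 699 and 761 in macrophages, 1505, 1372 and 1099 in endothelial cells, 1264, 899 and 794 in Dox islets and 388, 591 and 418 in No Dox islets. Its endothelial libraries lay above its macrophage libraries, as for Cmpk2 and Ifi44.

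Immediate early genes and markers of other cell types also differed in the macrophage comparisons. The summed signal of 10 immediate early and heat shock genes was 230170 to 258230 in macrophages, 55036 to 61514 in endothelial cells and 33367 to 45617 in Dox islets, and 9 of 10 and 10 of 10 of them were higher in macrophages. Neutrophil markers summed to 3915 to 4643 in macrophages and at most 278 in the other libraries, with Csf3r at 2923, 2155 and 3001 and Ly6g at 1.64, 1 and 1, at or near the floor. Conventional dendritic cell markers summed to 18826 to 24219 in macrophages, 9877 to 10464 in endothelial cells and 5706 to 6478 in Dox islets. Of 7 tested, 5 were higher in macrophages in both comparisons, Itgax, Cd209a, Flt3, Ccr7 and Batf3, and Zbtb46 and Clec9a were lower. Plasmacytoid dendritic cell markers summed to 11835 to 19780 in macrophages and 33954 to 41198 in endothelial cells, where Tcf4 alone made up most of the sum, at 36931, 39357 and 33848 against 4734, 4709 and 4662 in macrophages. Of these markers, Siglech was 385, 379.9 and 353 in macrophages and at the floor in endothelial cells, while Ly6d was at the floor in macrophages. T, NK and B cell markers summed to 1098 to 2152 in macrophages, 47.1 to 97.6 in endothelial cells and 295 to 479 in Dox islets. Of these 13 markers, 2 were tested in each macrophage comparison, and 2 were higher in macrophages each time. The shares of all genes were 29.4% and 24.7%. Against endothelial cells, where even the sum was under the filter, the tested markers reached it through macrophages alone and so had to differ. Between endothelial cells and Dox islets 0 of the 13 reached the filter. Cd3e was 3.26, 5.42 and 12.1 in macrophages. The part of these cells and genes in the interferon values was not tested.

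Genes upstream of the response, from a list of receptors, kinases, adaptors and factors beside the members, were also mostly higher in macrophages. Of 21 tested, 16 were higher and 0 lower against endothelial cells, beside 29.4% and 36% of all genes. The 3 largest were Irf5, a factor of macrophage activation, at 7.44 (SE 0.25, adjusted p = 1.09e-07), Ikbke, a kinase that activates Irf3, at 2.70 (SE 0.22, adjusted p = 1.12e-05), and Irf8, a myeloid lineage factor, at 2.50 (SE 0.14, adjusted p = 1.58e-06). Against Dox islets 16 of 21 were higher and 0 lower, beside 24.7% and 31.3% of all genes. They were led by Irf5 (4.72, SE 0.39, adjusted p = 1.31e-05), Irf8 (3.02, SE 0.25, adjusted p = 1.24e-05) and Tyk2 (2.96, SE 0.47, adjusted p = 6.40e-04). In both comparisons Irf5 reached the filter through macrophages alone and so had to differ, and both counts include it. Of the receptor kinases, Tyk2 was 1872, 1765 and 1117 in macrophages and 526, 378 and 349 in endothelial cells (1.91, SE 0.25, adjusted p = 2.09e-04), and Jak1 was 8895, 9257 and 10259 and 11296, 11978 and 10370 (-0.24, SE 0.10, adjusted p = 0.0556), which did not pass.

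Among 58 further interferon-stimulated genes, calls in both directions were made. Of 50 tested between the sorts, 25 were higher in macrophages and 7 lower, beside 29.4% and 36% of all genes, with a median of 0.50. The largest positive differences were those of Oas1g (5.85, SE 0.67, adjusted p = 9.66e-05), a close copy of Oas1a, and the Schlafen genes Slfn2 (5.07, SE 0.27, adjusted p = 1.13e-06) and Slfn8 (4.91, SE 0.28, adjusted p = 1.37e-06). Slfn2 and Slfn8 were among those that reached the filter through macrophages alone and so had to differ. How many genes of this list did so was not counted in any comparison. The largest negative differences were those of the immunity-related GTPases Tgtp1 (-1.39, SE 0.40, adjusted p = 0.0161) and Iigp1 (-1.03, SE 0.20, adjusted p = 0.00216) and the guanylate-binding Gbp9 (-0.77, SE 0.15, adjusted p = 0.00231), all known as interferon gamma targets. Against Dox islets 34 of 49 were higher and 1 lower, beside 24.7% and 31.3% of all genes. The higher ones were led by Oas1g (4.85, SE 0.90, adjusted p = 0.00156), Slfn2 (4.67, SE 0.40, adjusted p = 1.61e-05) and Slfn8 (3.53, SE 0.29, adjusted p = 1.17e-05), and Nt5c3 was lower (-0.89, SE 0.20, adjusted p = 0.00492). Here too Slfn2 was among those that reached the filter through macrophages alone. All of these lie in lists that were chosen with results of these data known.

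Endothelial cells against whole Dox islets gave fewer calls. Of 28 members tested, 10 were higher in endothelial cells (14% of 10187 genes were), 1 was lower (17.5%), together 11 against 31.5% of genes, and 17 did not pass. The median was 0.62, beside 0.08 over all genes. All 3 tested transcription factors were higher, as were 3 of 4 other induced genes, and neither receptor chain nor any tested sensor or GTPase passed. Leaving out 1 library moved the 11 calls to between 4, without endothelial library 1 or without library 2, and 16, without Dox islet library 1, with 7 without endothelial library 3 or Dox islet library 3. The calls over all 10187 genes moved as well, from 3206 to 2105 without endothelial library 1, 2133 without library 2 and 6168 without Dox islet library 1.

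The values behind these calls were given above by library. Irf1 was higher in endothelial cells by 1.66 (SE 0.24, adjusted p = 0.00124), Stat2 by 1.33 (SE 0.25, adjusted p = 0.00423) and Irf9 by 0.89 (SE 0.21, adjusted p = 0.0124), and none of their libraries overlapped with Dox islets, as for 25.6% of all genes. Among effectors, Oasl1 was higher by 1.31 (SE 0.34, adjusted p = 0.0197) and Oas1a by 1.20 (SE 0.34, adjusted p = 0.0286), both of which reached the filter through endothelial cells alone. Isg20 was lower by -2.41 (SE 0.39, adjusted p = 0.00206) and reached it through islets alone. Of the membrane effectors, Bst2 differed by 1.79 (SE 0.56, adjusted p = 0.0434) with overlapping libraries and Cmpk2 by 0.67 (SE 0.17, adjusted p = 0.0189) without overlap. Ifi35 differed by 1.31 (SE 0.35, adjusted p = 0.0233), Parp14 by 1.00 (SE 0.14, adjusted p = 0.00114) and Xaf1 by 0.83 (SE 0.18, adjusted p = 0.00821). Irf1, Stat2, Parp14 and Isg20 were the calls kept under every alternative in which they were tested, and 7 others were lost under at least 1.

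Of the members under the filter, Mx1, Oas2 and Oas3 had all endothelial libraries below the Dox islet libraries. Oas2 and Oas3 were called lower with no filter, and Oas2 and Mx1 with a filter at 15.6 instead of 183. Isg15 and Socs1 had all endothelial libraries above the Dox islet libraries, and Isg15 was called higher with the filter at 15.6. Macrophage markers were far lower in endothelial cells than in Dox islets, 10 of 11 tested, with sums of 2930 to 4185 and 19367 to 26918, and their part in these values was not tested. Of 20 upstream genes, 4 were higher in endothelial cells and 0 lower, beside 14% and 17.5% of all genes. The higher ones were Socs3 (1.70, SE 0.42, adjusted p = 0.0169), a feedback inhibitor, Il10rb (0.94, SE 0.23, adjusted p = 0.0174), a receptor chain shared with lambda interferons, Irf2 (0.74, SE 0.15, adjusted p = 0.00700) and Stat3, with the smallest of these differences. Of 47 further interferon-stimulated genes, 12 were higher and 5 lower, beside 14% and 17.5% of all genes. The 12 were led by Mov10 (1.50, SE 0.43, adjusted p = 0.0296), Gbp4 (1.36, SE 0.18, adjusted p = 7.50e-04) and Ly6e (1.20, SE 0.23, adjusted p = 0.00517), and the 5 by Ifi204 (-1.79, SE 0.41, adjusted p = 0.0122), Slfn8 (-1.39, SE 0.40, adjusted p = 0.0308) and Mnda (-1.32, SE 0.30, adjusted p = 0.0119). Slfn8 and Mnda were among those that reached the filter through islets alone and so had to differ. Differences of Tyk2 (1.05, SE 0.47, adjusted p = 0.128) and Jak1 (0.30, SE 0.15, adjusted p = 0.172) did not pass.

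The comparison of whole islets asks what differs after 1 week of Dox. Of 24 members tested, Ifnar2 and Ifitm3 rose with Dox and 0 fell. These 2 rises compare with 6.22% of 10214 genes tested, 2.26% of genes fell and 8.48% changed in either direction, so the members' share is near that of all genes. The other 14 members were under the filter. At an unadjusted p under 0.05, 9 members passed, but the share of all genes at that level was not computed. Values above 0 were seen for 20 of 24, again with no share over all genes, so neither count sets the members apart. The median was 0.71, beside 0.11 over all genes. In 9 members every Dox library lay above every No Dox library, which 17.3% of all genes did.

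Ifnar2 rose from 719.5, 654 and 846 to 1450.1, 1954 and 1941, by 1.26 (SE 0.29, adjusted p = 0.0308). Ifitm3 rose from 788, 1398 and 1091 to 2984, 2726 and 2261, by 1.31 (SE 0.31, adjusted p = 0.0336). Neither call is firm: both were lost with no filter, with the library number runs as a term and with both No Dox library 2 and Dox library 1 left out. Ifnar2 was also lost without No Dox library 1 or 2 or Dox library 2 or 3, and Ifitm3 without No Dox library 1 or 3 or any 1 Dox library. With the 4 groups in 1 fit, 1510 of the 10214 genes tested were called in place of 866. That fit called 8 members, adding Ifnar1, Ifit2, Oasl2, Ddx58, Gbp2 and Parp14. These stood at 0.92 (SE 0.26, adjusted p = 0.0640) for Ifnar1, 1.14 (SE 0.34, adjusted p = 0.0696) for Ifit2, 1.16 (SE 0.43, adjusted p = 0.131) for Oasl2, 0.83 (SE 0.27, adjusted p = 0.0938) for Ddx58, 1.29 (SE 0.37, adjusted p = 0.0649) for Gbp2 and 0.63 (SE 0.25, adjusted p = 0.161) for Parp14. Their libraries are given above for Dox islets, and the No Dox values were 417, 352 and 299 for Ifit2, 1727, 626 and 1036 for Oasl2, 1312, 1002 and 1181 for Ddx58 and 333, 278 and 511 for Gbp2.

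**Figure D4:**
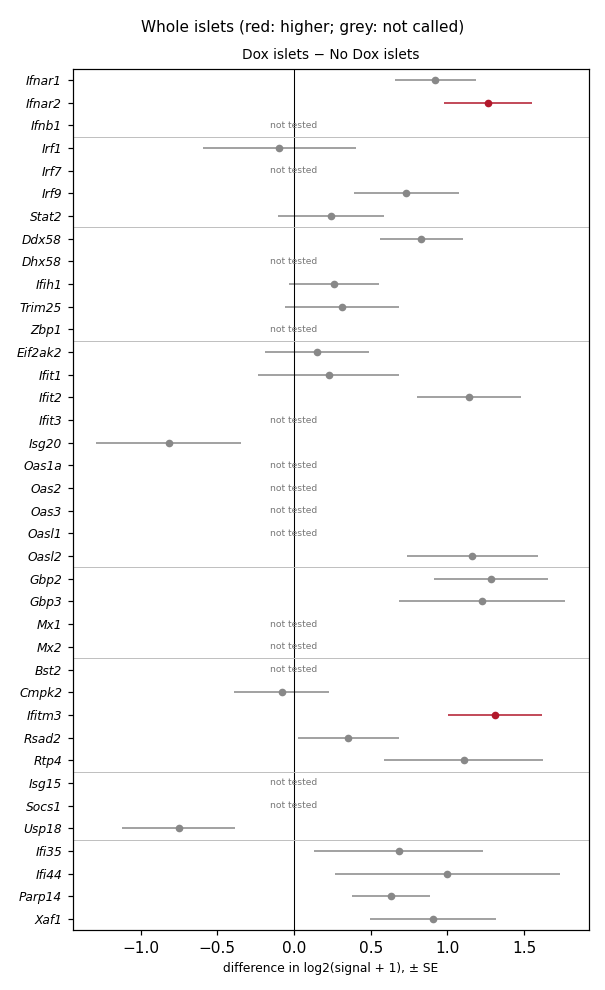
Difference in log2(signal + 1) ± SE (x axis) between Dox and No Dox islets for each member (y axis, grouped by role), with called members in red, others in grey and members under the filter marked as not tested. Ifnar2 and Ifitm3 are called, and 20 of 24 points lie right of 0.

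Interferon beta was under the filter and not tested in whole islets, where its signal was at or near the floor with and without Dox. Values below 0 were seen for Isg20 (-0.82, SE 0.47, adjusted p = 0.352), Usp18 (-0.75, SE 0.37, adjusted p = 0.258), Irf1 (-0.10, SE 0.50, adjusted p = 0.944) and Cmpk2 (-0.08, SE 0.31, adjusted p = 0.923), none of which passed. Cell type markers moved over the same groups. The macrophage marker sum was 6106 to 9400 without Dox and 19367 to 26918 with it, and 7 of 11 tested markers rose. The endothelial sum was 61204 to 67114 and 163640 to 206850, with 8 of 14 rising, and the beta cell sum was 394860 to 691250 and 165510 to 227410, with 6 of 10 falling. Both called members were higher in macrophages and in endothelial cells than in No Dox islets in every library, and the part of cell makeup was not tested.

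In the pathway around the members, 4 of 19 tested upstream genes rose with Dox and 0 fell, beside 6.22% and 2.26% of all genes. These were Tmem173, which encodes the adaptor STING (2.44, SE 0.44, adjusted p = 0.0155), the interferon gamma receptor chains Ifngr2 (1.89, SE 0.31, adjusted p = 0.0119) and Ifngr1 (1.19, SE 0.26, adjusted p = 0.0289), and Irf8 (1.58, SE 0.42, adjusted p = 0.0497). Tmem173 was 62.0, 117 and 86.8 without Dox and 558, 521 and 355 with it. It reached the filter through Dox islets alone and so had to differ. Jak1 stood at 0.57 (SE 0.29, adjusted p = 0.280), and Tyk2 was under the filter in this comparison. Of 42 further interferon-stimulated genes 2 rose and 0 fell, near the 6.22% and 2.26% of all genes. The 2 were the GTPase Ifi47 (1.53, SE 0.36, adjusted p = 0.0351) and galectin 9, Lgals9 (1.38, SE 0.32, adjusted p = 0.0332).

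Libraries of whole islets also differed within their groups in these genes. In 13 of 38 members both No Dox library 2 and Dox library 1 were the lowest of their group, among them Ifi44, Ifit1, Oasl2, Rsad2, Rtp4, Gbp3 and Eif2ak2. In 10 others both were the highest, among them Isg15, Irf7, Irf1, Isg20, Bst2 and Ifi35. Ifi44 shows the first set, at 341 in No Dox library 2 and 1870 to 1979 in the other No Dox libraries. Irf7 shows the second, at 123 against 32.2 and 50.9. Over all genes tested, the deviations of these 2 libraries from their group means correlated at 0.845, a description over genes that are not independent. Dox library 2 with No Dox library 3 gave 0.732, and Dox library 3 with No Dox library 1 gave 0.442. The remaining pairings of a Dox with a No Dox library ran from -0.668 to 0.191. Whether libraries of different number are pairs was not tested. The median coefficient of variation of members at or over the filter was 27.9% in No Dox islets, 26.8% in Dox islets, 15.5% in macrophages and 9.12% in endothelial cells.

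In the sorted cells, library 2 was the highest of both groups in 18 of 38 members, among them Ifit2, Ifit3, Oas2, Oasl2, Gbp2 and Gbp3. Macrophage library 2 was the highest of its group in 22 members, and libraries 1 and 3 were each the lowest in 18. Ifnb1, Mx1, Mx2, Oas3, Oasl1, Ifih1 and Rsad2 were lowest in macrophage library 1 and highest in library 3. Isg15, Irf7, Dhx58, Bst2, Irf9 and Xaf1 were lowest in library 3. Within the run of library numbers that holds libraries 1 and 2 of both sorts, 28 members were higher in macrophages and 2 lower. Of the 10145 genes tested, 3162 were higher and 3885 lower there.

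Many members lie in clusters on the genome, in mm9 coordinates. The Oas genes span chr5:121180342-121357536 in the order Oas2, Oas3 and Oas1a, and all 3 were higher in macrophages than in both other groups tested. Oasl2 and Oasl1 adjoin at chr5:115346943-115387924, Mx1 and Mx2 at chr16:97668642-97782506, and the Ifit genes at chr19:34625184-34724499. In these clusters the members shared the direction of the macrophage comparisons. Rsad2 and Cmpk2, neighbours on chromosome 12, did not: the signs of their differences from endothelial cells were opposite, though that of Rsad2 did not pass and the contrast between them was not tested.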

How the data were processed

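RNA of isolated islets or sorted cells was amplified with a NuGEN Ovation kit, made into libraries with a NEBNext kit and sequenced on an Illumina HiSeq, per the labels' protocols. The deposited values are a normalized signal that the authors computed, and the sources used here do not give the method, the counting program, the annotation or any use of strand. The submitters' processing notes list TopHat2 2.0 and build mm9 without saying what each was used for. Low values lie on whole multiples of a step of each library, but whole reads could not be recovered, so depth is unknown and no count model was used.

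Of 22793 genes, 25 symbols stored as dates were restored, and for 76 symbols with several entries the highest was kept. Values were analysed as log2(signal + 1) with limma 3.58.1 in R 4.3.3 (empirical Bayes with a trend), 6 libraries per fit and a two-sided test. P-values were adjusted by Benjamini-Hochberg over all genes tested, with a threshold of 0.05. The filter, the 40th percentile of values above the floor (183), had to be reached in 3 libraries. The scripts were checked on simulated data. Members, lists and roles were chosen with earlier results of these data known. Values by library are given for called members and the ligand and receptors, and of other lists for Tyk2, Jak1 and genes singled out after their values were seen. The values of 1 gene of these lists are not reported here. The 3 largest called differences in each direction are named per list and comparison. Alternatives were no filter and a stricter one at 578, an added 16, quantile and median ratio scaling, 4 groups in 1 fit, a replicate block and leaving out libraries. A filter at 15.6 and the runs of library numbers in the file header were added after seeing the data. As a check of pairing, each library's log2 values minus its group mean were correlated over genes with those of the library of equal number: macrophages with endothelial cells gave 0.268, 0.510 and 0.450. These numbers were taken as pairs on that check alone, since the labels state no pairing.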

Additional observations from a re-analysis of the deposited data

How the results depend on the processing

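Of 28 members called between the sorted cells, 22 were called under every alternative in which they were tested. Of 32 called between macrophages and Dox islets 25 were. Between endothelial cells and Dox islets it was 4 of 11, and in whole islets 0 of 2. Members that the stricter filter left untested count as kept here. These were Irf7, Isg20 and Oas3 between the sorts, Dhx58, Irf7 and Oas3 between macrophages and Dox islets, and Isg20 between endothelial cells and Dox islets. No called member changed sign. The 2 calls in whole islets became 0 with no filter, 1 with quantile scaling, 8 with 4 groups in one fit, 0 with the replicate block, 0 to 1 when a library was left out, 0 without both No Dox library 2 and Dox library 1, 0 with the library number run as a term and 1, Oasl2, within one run. Between endothelial cells and Dox islets the 11 calls became 7 with the stricter filter and 4 to 16 when a library was left out. The causes were not tested.

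With the replicate block, the paired sorted cells gave 29 calls in place of 28, adding Ddx58, and no other call of theirs changed. In the other comparisons same-numbered libraries did not deviate together (-0.214, -0.664 and 0.191 in whole islets; 0.213, 0.0924 and 0.0488 for macrophages and Dox islets; 0.335, -0.0148 and 0.0667 for endothelial cells and Dox islets), and the block gave 0, 33 and 13 calls. Without Dox library 2, 5 of all genes were called in whole islets in place of 866, and 97 with no filter. Quantile scaling gave 577 higher and 421 lower genes in whole islets, and median ratio scaling 519 and 315, in place of 635 and 231. It moved the median of all genes there from 0.11 to -0.02, and between endothelial cells and Dox islets it gave 2073 higher and 1701 lower genes in place of 1423 and 1783.

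Only uncalled differences changed sign. In whole islets Ifit1 ran from -0.10 to 0.68 when a library was left out, Irf1 from -0.67 to 0.28, Stat2 from -0.018 to 0.46, Eif2ak2 from -0.10 to 0.39 and Cmpk2 from -0.23 to 0.15. Irf1 was 0.0275 without No Dox library 2 and Dox library 1, and Ifi35 was -0.0642 within one run. Between the sorted cells Rsad2 ran from -0.0617 to 0.67 and Ifitm3 from -0.29 to 0.0838, the latter 0.00738 with median ratio scaling. Between endothelial cells and Dox islets the ranges were -0.67 to 0.12 for Ifit1, -0.28 to 0.24 for Oasl2, -0.16 to 0.14 for Usp18, -0.0539 to 0.35 for Trim25 and -0.19 to 0.69 for Gbp3. Quantile scaling gave 0.0817 for Ifit1, 0.305 for Ifit3 and 0.25 for Usp18, and the run as a term 0.76, 0.21 and 0.29. Median ratio scaling gave 0.00433 for Usp18. Depth is unknown, so the counting error of members near the floor could not be estimated.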
